A study of Mus musculus with 4 samples.

Results

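Narrow promoter domains are short stretches of histone H3 trimethylated at lysine 4 (H3K4me3) that lie at the start of protein-coding genes. They were taken from the deposited list of replicated peaks in mouse hippocampus: peaks within 1 kb of each other were joined, and joined domains under 600 bp that came within 1 kb of a transcription start site of a protein-coding transcript (GENCODE M21) were kept. This gave 501 narrow domains among 13898 promoter domains (3.60%) and among 23266 domains in all. Each consisted of a single peak. They were thus chosen by their length in the replicated list, so that length, and the signal that goes with it, are described here and not tested.

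The mice were adult males of B6CASTF1/J, 2 months old, first-generation hybrids of C57BL/6 and the wild-derived strain CAST/EiJ. The labels call it a layer of the hippocampus and name no particular layer. Chromatin from frozen tissue was immunoprecipitated for H3K4me3 in 4 libraries, from 2 pools of 7 tissue samples. Biological replicate 1 was named pool D and biological replicate 2 pool C, and each was run as 2 technical replicates. All libraries carried the same strain, sex, age and antibody, with no treatment or second tissue. The deposited files hold 1 peak list for pool D (24690 peaks), 1 for pool C (34193 peaks), 1 for both pools called together (31301 peaks) and the replicated list (27063 peaks), all on build mm10. Both technical replicates of a pool entered the same list, so neither the spread between them nor that among the pooled tissues could be measured, and the depth of the libraries is unknown. Because each pool gave 1 list and domains are not replicates of a tissue, no test was made and all comparisons below are descriptions.

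H3K4me3 is written by the SET1 and MLL methyltransferase complexes on nucleosomes next to active and poised promoters. It is usually strongest just downstream of the start site, on the first nucleosomes of the transcribed region, and CpG islands attract it because the CXXC domain of the writers' partner proteins binds unmethylated CpG. In brain, broad domains are known at genes of neuronal identity, whereas small domains can stem from weak or alternative promoters, or from promoters used in few of the cells of a mixed tissue. In such tissue a mark on fewer cells and a weaker mark on every cell cannot be told apart.

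Sequences at annotated start sites of 6 narrow domains are shown because they span the range of CpG content, which differed between narrow and broad domains. Each stretch covers 170 bases before the annotated start site and the 30 bases from it onward, 5′ to 3′ on the coding strand. It was read from the RefSeq copy of GRCm38 (the same build as mm10). Capitals mark CpG dinucleotides. A stretch can reach beyond its domain. Of the 200 bases, 151 lay inside it for Cldn1, 200 for Best2, 136 for Vgll2, 159 for Arhgap21, 80 for Iqsec2 and 200 for Nmu. The first 3 are the strongest domains that cover a start site and whose stretch holds no more than 30 untranslated bases. They belong to Cldn1, a tight junction protein (chr16:26371812-26372011, minus strand), Best2, a bestrophin anion channel (chr8:85013562-85013761, minus strand), and Vgll2, a cofactor of TEAD transcription factors (chr10:52022332-52022531, plus strand).
Cldn1: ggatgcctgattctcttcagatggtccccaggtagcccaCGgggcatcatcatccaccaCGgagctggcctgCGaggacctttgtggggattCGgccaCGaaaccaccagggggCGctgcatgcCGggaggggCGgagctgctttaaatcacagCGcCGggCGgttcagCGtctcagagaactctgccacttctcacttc
Best2: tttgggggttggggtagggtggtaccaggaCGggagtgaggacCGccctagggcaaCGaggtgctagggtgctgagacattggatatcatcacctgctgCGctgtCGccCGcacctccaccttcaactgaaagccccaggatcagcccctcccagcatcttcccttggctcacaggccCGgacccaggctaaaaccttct
Vgll2: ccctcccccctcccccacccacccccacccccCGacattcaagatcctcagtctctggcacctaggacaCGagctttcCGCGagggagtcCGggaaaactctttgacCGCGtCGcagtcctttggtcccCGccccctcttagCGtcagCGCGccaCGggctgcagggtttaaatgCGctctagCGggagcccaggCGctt
These 3 stretches held 12, 7 and 16 CpG dinucleotides. By contrast, the stretches of Arhgap21, a GTPase-activating protein (chr2:20883200-20883399, minus strand), and of Iqsec2, an exchange factor for ARF6 at synapses (chrX:152178794-152178993, plus strand), held 0 each. They are among the 3 domains covering a start site with the lowest ratio of observed to expected CpG, and both genes also had a wider domain at another start site. The domain of Arhgap21 was weak, with signal 2.01 and a −log10 q of 0.61, and was in neither pool. Its stretch held 0 annotated untranslated bases, and whether transcription starts there was not tested.
Arhgap21: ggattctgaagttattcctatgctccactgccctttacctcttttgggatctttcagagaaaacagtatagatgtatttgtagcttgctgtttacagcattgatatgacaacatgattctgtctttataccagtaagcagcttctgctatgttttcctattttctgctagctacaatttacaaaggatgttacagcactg
Iqsec2: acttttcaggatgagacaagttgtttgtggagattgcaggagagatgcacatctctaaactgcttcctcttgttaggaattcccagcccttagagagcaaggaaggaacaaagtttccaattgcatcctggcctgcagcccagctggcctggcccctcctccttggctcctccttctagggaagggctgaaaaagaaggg
The sixth stretch is from Nmu, which encodes the neuropeptide neuromedin U (chr5:76363759-76363958, minus strand). It was rich in CpG, with 18 in 200 bases, and the gene had no wider domain.
Nmu: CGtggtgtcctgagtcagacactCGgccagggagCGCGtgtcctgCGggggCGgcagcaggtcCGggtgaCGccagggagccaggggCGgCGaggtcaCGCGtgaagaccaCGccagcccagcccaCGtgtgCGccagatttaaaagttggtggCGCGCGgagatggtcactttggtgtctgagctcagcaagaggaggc

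The narrow domains were also weak. Their lengths ran from 184 to 599 bp, with quartiles at 333, 430 and 522 bp. The signal value, an enrichment on the scale of the authors' peak caller, had a median of 3.89 and ran from 1.79 to 19.9, against medians of 6.98 in promoter domains of 600 to under 1000 bp and 22.5 in those of 1000 bp or more. The −log10 q value of the peak, as the authors deposited it, had a median of 5.62, against 18.3 and 129 in the same 2 classes. In 14 narrow domains (2.79%) the deposited q was above 0.05.

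The strongest narrow domains belonged to genes of varied function, several of them known from dividing cells or epithelia. Where a pair of pool lengths is given below, that in pool D comes first and that in pool C second. Shcbp1, an SHC-binding protein of dividing cells, had the highest signal value of all, 19.9, in a domain of 584 bp (chr8:4779059-4779642) with lengths in the pools of 514 and 631 bp. Esco2, the acetyltransferase that establishes sister chromatid cohesion, had a domain of 577 bp (chr14:65833432-65834008) with signal 16.5, and lengths in the pools of 470 and 651 bp. Both were in each pool, and both were longer than 600 bp in pool C. The uncharacterised gene 1700016H13Rik followed with signal 15.9 (593 bp, pool lengths 552 and 664 bp). Cldn1 had signal 13.4 (561 bp, pool lengths 523 and 758 bp) and Best2 signal 13.3 (582 bp, pool lengths 511 and 592 bp). Vgll2 was the shortest of the 10 strongest at 390 bp, with signal 13.1, and lengths in the pools of 370 and 1201 bp. The other 4 were Gm14305, Slc6a21, a solute carrier, BC030867 and Trim34a, of the TRIM family of ubiquitin ligases, with signal between 10.6 and 11.5. All 10 covered a start site, lay in both pools and belonged to genes without a wider domain.

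At the other end of the range, the shortest domain was 184 bp at Tifab (signal 3.12), an inhibitor of TRAF6 signalling, and neither single-pool list held it. Ly86, whose protein MD-1 partners the B-cell and myeloid receptor CD180, had a domain of 191 bp with a −log10 q of 0.26, found only in pool C. Cracr2b, a regulator of calcium entry, had one of 192 bp that was in neither list. At the length limit, Arhgap22, Lpin3 and Dpys fell just inside it with 599 bp each and signal of 5.27, 5.96 and 4.62. Etnppl, Kbtbd13 and Slc47a2 fell just outside it with 600, 601 and 601 bp and signal of 4.07, 4.05 and 2.95. The 3 just outside thus had lower signal than the 3 just inside.

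Most narrow domains, like most broad ones, had their summit downstream of the start site, but they reached the site itself far less often. The summit, the base of highest signal in the peak, lay at a median of 123 bp downstream of the nearest coding start site (quartiles 3 and 250 bp downstream), against 120 bp in domains of 600 to under 1000 bp and 167 bp in longer ones. It was downstream in 378 of 501 domains (75.4%), against 77.3% of domains of 600 to under 1000 bp and 84.3% of those of 1000 bp or more. A start site was covered in 262 narrow domains (52.3%), against 83.5% of domains of 600 to under 1000 bp and 98.7% of those of 1000 bp or more. With no gap between peaks closed, the share among narrow domains was 32.7%. A shorter domain covers any given base less often, so this measure is not independent of how the domains were chosen. Where the site was not covered, 187 domains began downstream, with a median gap of 120 bp, and 52 lay upstream, with a median gap of 311 bp. The position plot shows that the summits of narrow domains keep the single peak just downstream of the start site.

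**Figure D1:**
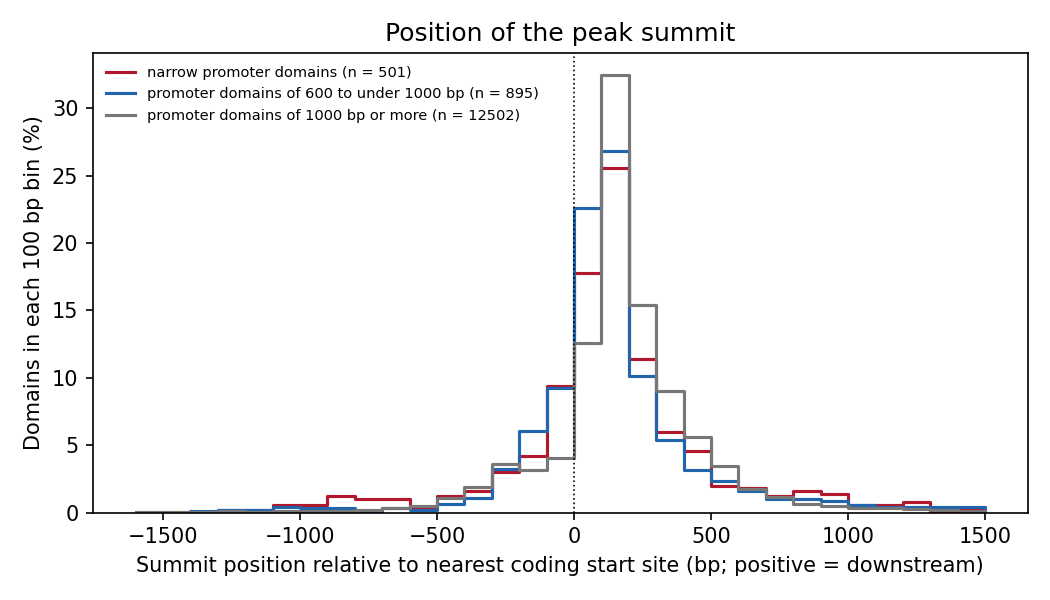
Position of the peak summit relative to the nearest protein-coding start site (x axis, bp, positive downstream) as the percentage of domains per 100 bp bin (y axis). The 501 narrow promoter domains, those of 600 to under 1000 bp and those of 1000 bp or more all peak between 0 and 200 bp downstream, and the narrow ones have more summits beyond 500 bp upstream than the longest class.

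Within gene models, the summit fell in an intron in 187 narrow domains (37.3%), in an untranslated exon in 132 (26.3%), in an exon that is coding in at least 1 transcript in 119 (23.8%) and outside coding transcripts in 63 (12.6%). The last share was 11.96% in domains of 600 to under 1000 bp and 8.14% in all promoter domains. Over all promoter domains the other shares, in the same order, were 42.8, 26.4 and 22.7%. In 16 narrow domains only an edge came within 1 kb and the summit lay further off. Such a domain was that of Mobp, a myelin protein gene, whose summit lay 1221 bp inside the gene. Annotated starts of noncoding genes were covered by 15 narrow domains (2.99%), against 5.47% of domains of 600 to under 1000 bp and 14.8% of all promoter domains. Shorter domains cover fewer bases, so this measure too is not independent of how the domains were chosen.

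Narrow domains fell into those of genes without a wider promoter domain and those that lay at a further start site of a gene marked broadly elsewhere. With no gaps closed, 1191 peaks met the same rule on length and position, and 36.3% of their genes lacked a wider one. The joined domains reached 504 genes: 490 domains reached 1 gene, 10 reached 2 and 1 reached 3 (Tcte3, Ermard and Gm3448). For 373 of these genes (74.0%) no promoter domain of 600 bp or more was present, which is 1.71% of the 21853 protein-coding genes and 2.63% of the 14169 genes with any promoter domain. The remaining 131 genes also had a wider domain. Counted by the gene with the nearest start site, 369 domains belonged to genes without a wider domain and 132 to genes with one. Of the 369, 49 (13.3%) still lay under 5 kb from a domain of 600 bp or more that was not a promoter domain of that gene. Over all promoter domains 12.4% lay under 5 kb from another domain of that length.

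These classes differed in where they lay. When the gene had no wider domain, the nearest start site was the 5′ end of the gene in 51.8% of domains and belonged to a transcript of the GENCODE basic set, which leaves out incomplete models, in 90.8%. When the gene also had a wider domain, these shares were 15.9% and 59.1%, so 40.9% of that class rested on start sites of transcripts outside the basic set. The summit lay in an intron in 50.8% of that class and in 32.5% of the other. The gene's wider domain was a median of 17104 bp away (quartiles 5491 and 38719 bp) and had a median length of 2177 bp. In 91 of 132 cases the narrow domain lay downstream of it in the direction of transcription, and in 33 the gap was under 5 kb.

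Several genes of neuronal biology showed this second pattern, and were chosen for mention after their values were seen. Mef2c, an activity-dependent transcription factor, had a narrow domain of 559 bp at a start site covered by it (signal 4.57), with pool lengths of 802 and 555 bp, and a wider domain of 7392 bp that lay 18712 bp from it. Nfasc, which encodes the node of Ranvier protein neurofascin, had 415 bp (signal 4.07) close to an internal start, absent from pool D and 1201 bp long in pool C, with its wider domain of 3756 bp 31360 bp away. Rbfox1, a neuronal splicing factor, had 486 bp (signal 2.98) in an intron, found in pool C as 597 bp, and its wider domain of 3309 bp was 842219 bp away. In each of the 3 the narrow domain lay at another annotated start than the wide one.

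Pool C held nearly all narrow domains and pool D about as many as it lacked. In the pool D list 255 of 501 (50.9%) shared at least 1 bp with a peak, against 97.5% of all promoter domains, and in the pool C list 463 (92.4%), against 99.7%. Both lists held 251, pool C alone 212, pool D alone 4 and neither 34. Domains of 600 to under 1000 bp were found in 90.5% and 100%. Narrow domains away from promoters (4335) were found in 48.6% and 91.1%, shares near those of the narrow domains at promoters. The pool C list held more peaks in all, and the part played by sequencing depth was not tested. Where narrow domains were formed in another list, presence in pool D was lower: 34.1% for the list called on both pools together and 21.4% for the 626 narrow domains of the pool C list. All 4 lists come from the same libraries, so these shares are not an independent check of its peaks.

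Presence in pool D rose with length and with the strength of the peak. It was 22.2% under 300 bp, 40.4% from 300 bp, 55.2% from 400 bp and 71.4% from 500 bp upward, while in pool C the shares were 70.0, 93.9, 97.2 and 100%. By the −log10 q of the replicated list, 5.17% of 58 narrow domains below 2 were found in pool D, 27.6% of 181 from 2 to 5, 66.4% of 152 from 5 to 10, 88.0% of 75 from 10 to 20 and 100% of 35 at 20 or above. Domains of 600 to under 1000 bp of the same strength were found more often in pool D in the first 4 bands, with 16.7% of only 6 domains, 48.2% of 83, 78.4% of 153 and 98.3% of 233. The plot of presence by length shows the rise going on beyond the limit of 600 bp.

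**Figure D2:**
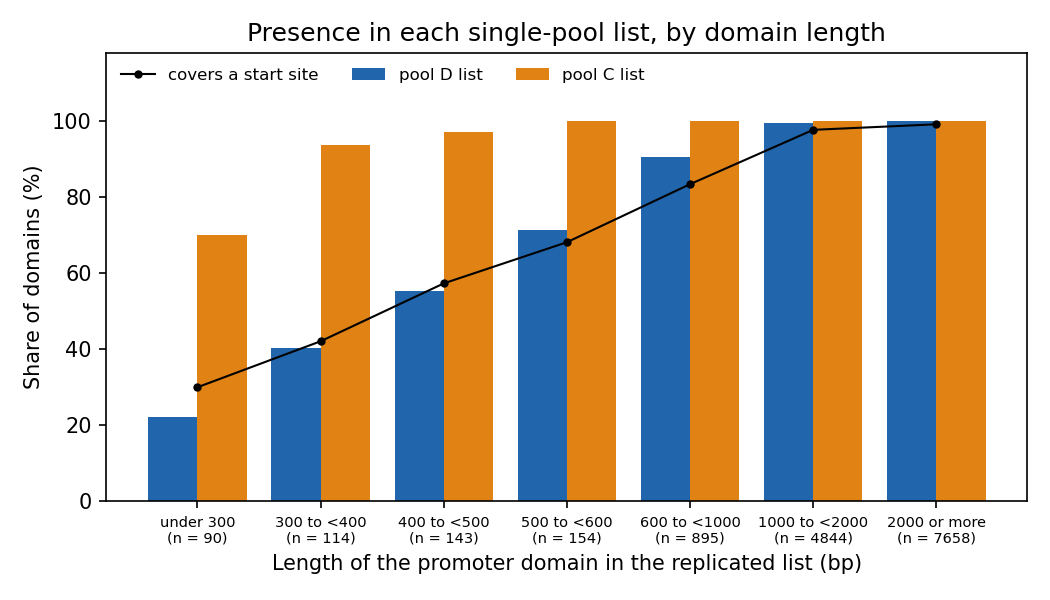
Percentage of promoter domains (y axis) found in the pool D list and in the pool C list (bars) and covering a start site (line), by domain length in the replicated list (x axis, bp, number of domains in parentheses). Presence in pool D climbs from 22.2% under 300 bp to 90.5% at 600 to under 1000 bp, whereas pool C is at 70.0% under 300 bp and at 100% from 500 bp.

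The 4 domains of pool D alone were at Dnd1, an RNA-binding protein of germ cells (298 bp, 297 bp in pool D), Paqr6, a membrane progesterone receptor (469 bp, 258 bp in pool D), Cyp2j13, a cytochrome P450 (295 bp, 271 bp in pool D), and Rtp2, a receptor transporter (246 bp, 222 bp in pool D). None covered a start site. Among the 34 in neither pool the strongest was at Foxe3, a lens transcription factor, with 257 bp and signal 3.64. Lbhd2 (219 bp, signal 3.47), Zfp955b (266 bp, signal 3.47) and Stard8, a GTPase-activating protein (425 bp, signal 3.38), followed. These domains were weak as a class: 19 of the 34 had a −log10 q under 2, and 20 of them appeared in the list called on both pools together.

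Whether a domain was narrow depended on the pool. Among the 251 found in both pools the median length was 384 bp in pool D against 598 bp in pool C, and 232 of them were longer in pool C, with a median ratio of 1.49. The same ratio was 1.33 in domains of 600 to under 1000 bp and 1.18 over 13292 other promoter domains found in both pools. With single peaks in place of joined domains the medians were 384 and 568 bp and the ratio 1.42, against 1.18 in the other promoter domains. Pool C peaks were thus longer in both classes. Length in the replicated list, which comes from the same libraries as the pool lists, chose these domains, so the larger ratio is given as a description. Of the 463 found in pool C, 217 (46.9%) were 600 bp or longer there. Of the 255 found in pool D only 3 were, at Nos3, Grap and Mef2c. Only 124 were under 600 bp in both pools. The plot of lengths in the pools shows nearly all points above the diagonal.

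**Figure D3:**
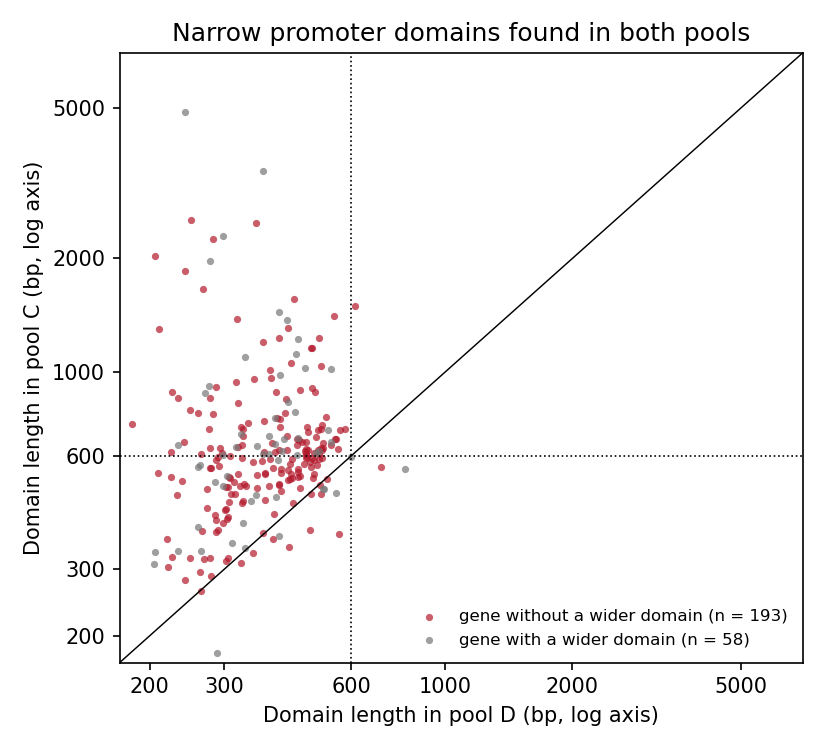
Length in pool D (x axis) against length in pool C (y axis), both in bp on log axes, for the 251 narrow domains found in both lists, by whether the gene also has a wider promoter domain. The solid line marks equal lengths and the dotted lines 600 bp. Of these domains 232 are longer in pool C, and 124 lie under 600 bp in both.

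In 17 domains the pool C domain reached 2000 bp or more, and 9 of these were at genes with a wider domain. The 5 longest in pool C all lay between 1.0 and 1.8 kb from that wider domain. The domain of Vstm2a, a membrane protein with an immunoglobulin domain, was 576 bp long in the replicated list and 8442 bp long in pool C. Mobp went from 555 to 6450 bp, and Pdgfra, the growth factor receptor of oligodendrocyte precursors, from 423 to 5880 bp. Plekhb1 went from 471 to 4885 bp, and Mas1, a receptor for an angiotensin peptide, from 385 to 4484 bp. Of the 5, only Plekhb1 was in pool D, with 242 bp. In pool C each of them formed 1 domain with the gene's wider domain, from which the joining distance of 1 kb had kept it apart in the replicated list. Over all 132 domains of genes with a wider one, a joined pool C domain spanned both in 7. Among these was Cracr2b, whose narrow domain lay in a closed gap of that domain and shared no base with a pool C peak. Among genes without a wider domain, Cyp2j12 reached 3682 bp in pool C from 571 bp in the replicated list.

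Narrow domains were poorer in CpG than broad promoter domains. In 300 bp around the summit the median ratio of observed to expected CpG was 0.509, against 0.628 in domains of 600 to under 1000 bp and 0.770 in those of 1000 bp or more. Narrow domains away from promoters had a median of 0.444. The ratio was under 0.4 in 170 narrow promoter domains (33.9%), against 7.56% of all promoter domains. It was higher where the gene had no wider domain (0.546) than where it had one (0.409), and higher where a start site was covered (0.565) than where it was not (0.440). The plot of CpG content shows that the narrow domains of genes without a wider one spread over the whole range between promoter-distal narrow domains and broad promoters.

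**Figure D4:**
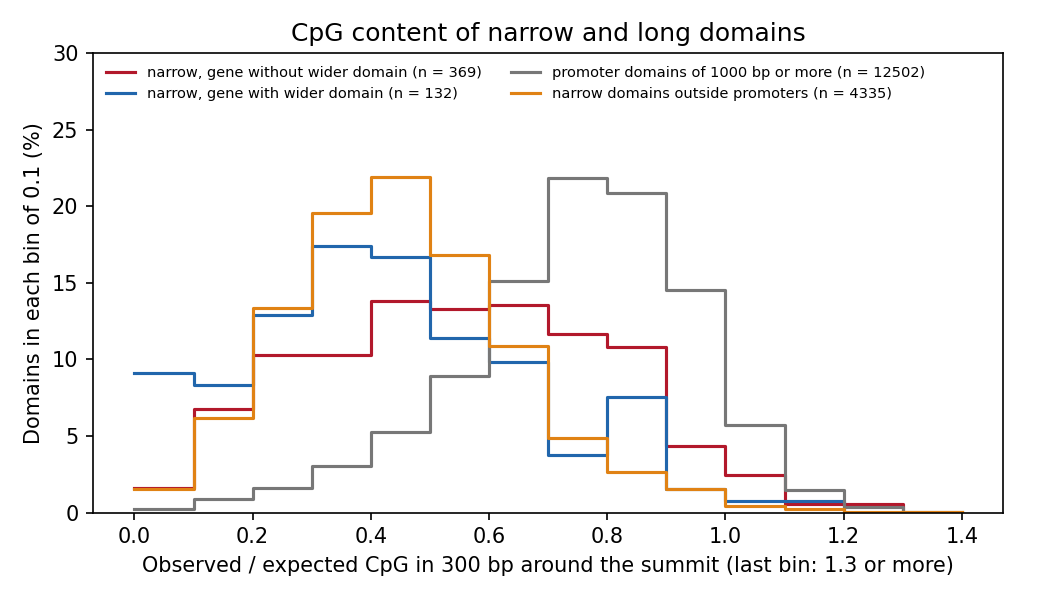
Ratio of observed to expected CpG in 300 bp around the summit (x axis) as the percentage of domains per bin of 0.1 (y axis). Domains of 1000 bp or more peak at 0.7 to 0.9, narrow domains away from promoters at 0.4 to 0.5, and the narrow promoter domains of genes without a wider domain lie spread from 0.2 to 0.9.

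The CpG ratio had a wide range. Over the whole domain the ratio was 1.23 at Foxe3, 1.18 at Ecel1, an endopeptidase of neurons, and 1.12 at Foxe1, a thyroid transcription factor, and it was 0 at Mprip, Arhgap21 and AU021092, which held no CpG at all. The domain of Foxe3 was in neither pool, those of Ecel1 and Foxe1 were 358 and 339 bp in pool C, and none of these 3 domains was in pool D. Ecel1 also had another narrow domain (297 bp, signal 4.84), with pool lengths of 249 and 321 bp. Of the domains without CpG, those of Mprip (339 bp) and AU021092 (564 bp) were in pool C only and that of Arhgap21 was in neither. Promoter letters were also searched in the window from 250 bases before to 50 after the nearest start site, on either strand. GGGCGG, the core of the GC box bound by SP1, stood in 39.3% of these windows. Its share was 50.1% in domains of 600 to under 1000 bp and 65.9% over all promoter domains. CCAAT stood in 29.1%, against 33.2 and 34.4% in the same 2 classes. TATAAA, on the coding strand from 45 to 15 bases before the start site, stood in 8 (1.60%), against 1.34 and 0.950% in these classes. The 8 were at Aqp3, Sct, Lipo3, H2-Q10, Calb2, Gsx2, Adamtsl2 and Alx1, all without a wider domain. A match describes letters in this window and not a bound site.

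Some narrow domains lay in sequence with near-identical copies, where the assignment of reads is uncertain. In 27 (5.39%) at least 150 of the 300 bases around the summit aligned elsewhere at 90% identity or more, against 1.96% of all promoter domains and 6.15% of those of 600 to under 1000 bp. The highest numbers of other copies were 35 at Gm14305 and at Gm14410, members of a zinc finger cluster on chromosome 2, 33 at Gm3264, 30 at Gm8281 and 27 at Gm3164. Fcgr3, Ifitm3, C1ra and the pair Zfp955a and Zfp955b were also among the 27. Chromosome X held 25 narrow domains (4.99%), against 4.92% of domains of 600 to under 1000 bp and 3.44% of all promoter domains.

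Defining genes of hippocampal neurons had broad domains, which give a scale for the gene groups that follow. Their promoter domains ran from 5618 bp (Neurod2) to 15960 bp (Grin2b), with 15493 bp at Prox1 of granule cells, while the microglial genes Cx3cr1, Aif1 and C1qa had none, nor did Hba-a1 and Alas2 of blood cells, or Alb, Acta1 and Krt5 of other tissues. Of the markers of choroid plexus Ttr had none and Kl had one of 1278 bp. All 20 genes of the excitatory neuron list, all 20 of astrocytes and all 25 housekeeping genes had a domain of 600 bp or more, so none of them had only a narrow one. Counts in the lists below are to be read beside the 1.71% of all protein-coding genes with only a narrow domain. They are small, and nothing is called particular to a list from them.

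Among the cell type lists, those of microglia and of mural and meningeal cells had the most narrow-only genes. Of 25 microglial genes 4 had only a narrow domain, 6 had a wider one and 15 had none. C1qc, a chain of complement C1q, had 382 bp (signal 3.55), absent from pool D and 664 bp in pool C. Cd68, a lysosomal protein, had 351 bp (signal 3.12) and pool lengths of 250 and 794 bp. Tmem119, a surface protein of homeostatic microglia, had 269 bp (signal 3.12), absent from pool D and 286 bp in pool C, and Ly86 was the fourth. Only Cd68 was thus present in both pools. None of the 4 domains covered a start site, whereas 52.3% of all narrow promoter domains did. The nearest edge lay downstream of the start, by 473 bp at C1qc, 11 bp at Cd68, 104 bp at Tmem119 and 945 bp at Ly86. The CpG ratio around the summit was 0.205 at C1qc, 0.287 at Cd68, 0.498 at Tmem119 and 0.501 at Ly86, beside the median of 0.509 over all narrow promoter domains.

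Mural and meningeal cells had 4 of 20 genes with only a narrow domain, 10 with a wider one and 6 with none. Abcc9, a potassium channel subunit of pericytes, had 361 bp with signal 4.24, and lengths in the pools of 327 and 500 bp. Acta2, smooth muscle actin, had 339 bp (signal 2.78) and Igf2, an imprinted growth factor, 592 bp (signal 3.12). Both were absent from pool D and measured 473 and 614 bp in pool C. Anpep, an aminopeptidase, was in neither pool. The endothelial list had 1 of 21, Tie1, a receptor tyrosine kinase, with 510 bp (signal 3.72) that was absent from pool D and 1250 bp in pool C, and 17 with a wider domain. In the oligodendrocyte lineage 2 of 24 were narrow only, 20 wider. They were Gpr17 (481 bp, signal 3.21, pool lengths 433 and 1058 bp) and Enpp6 (493 bp, signal 2.95, absent from pool D and 525 bp in pool C), both known from newly forming oligodendrocytes.

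**Figure D5:**
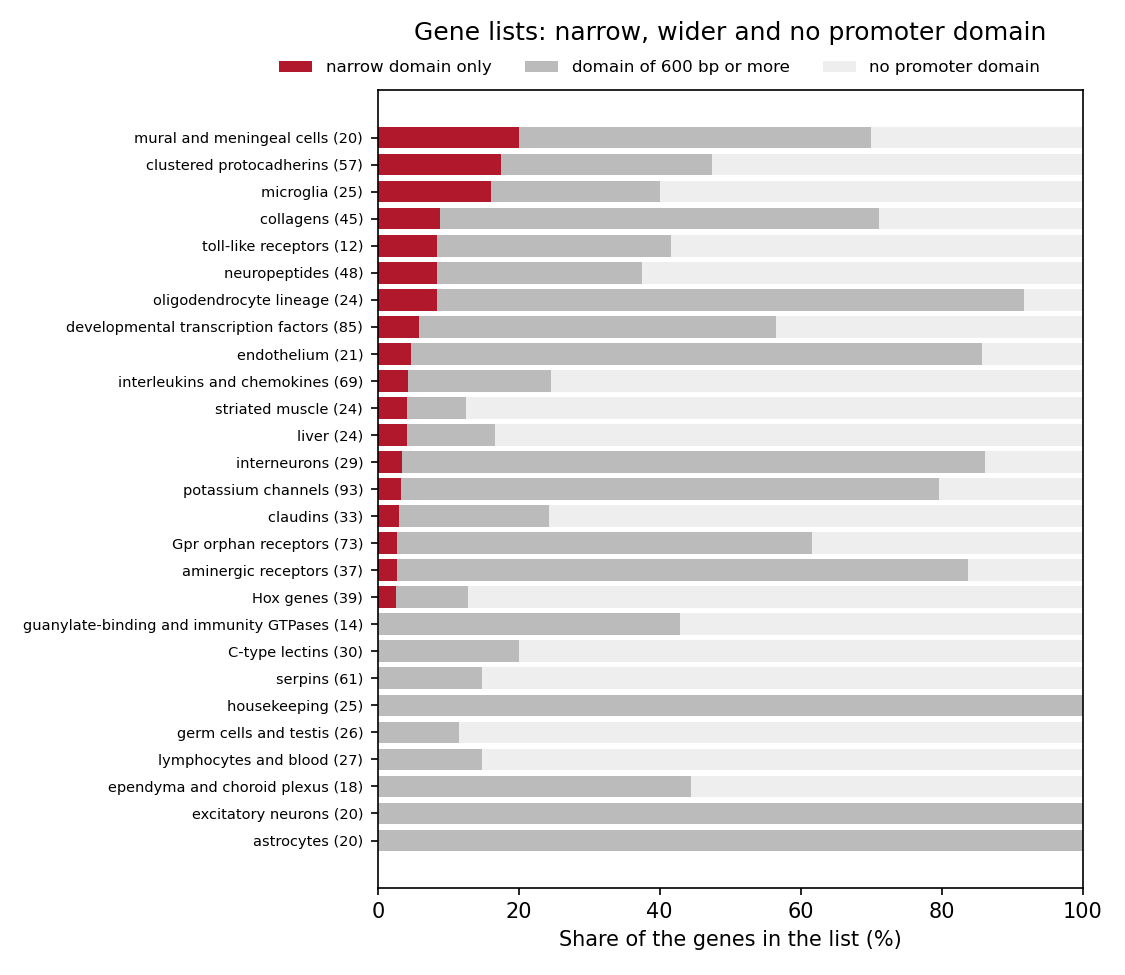
Percentage of the genes in each list (x axis, number of genes in parentheses) with only a narrow promoter domain, with a domain of 600 bp or more, or with none, for lists of 12 to 99 genes. Mural and meningeal cells (4 of 20), clustered protocadherins (10 of 57) and microglia (4 of 25) have the highest narrow-only shares, and housekeeping, excitatory neuron and astrocyte genes have none.

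Neuropeptide genes mostly had no domain in this tissue. Of 48 neuropeptide genes 4 were narrow only, 14 wider and 30 without a domain. Npw, neuropeptide W, had 561 bp with signal 5.95, and lengths in the pools of 490 and 609 bp. Cartpt, the CART prepropeptide, had 551 bp with signal 4.41, and lengths in the pools of 386 and 587 bp. Oxt, oxytocin, had 443 bp with signal 4.46 whose summit lay 650 bp downstream of its start, and Nmu 409 bp with signal 3.81. Oxt and Nmu were absent from pool D and measured 519 and 494 bp in pool C. All 4 were therefore in pool C and 2 in pool D.

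Of the interneuron list (29 genes) only Calb2, calretinin, had a narrow domain alone (288 bp, signal 4.54, absent from pool D and 328 bp in pool C), and 24 had a wider one. Of 37 receptors for monoamines or of the muscarinic type only Chrm4, the M4 muscarinic receptor, did (494 bp, signal 3.51, absent from pool D and 630 bp in pool C), and 30 had a wider one. Its summit lay 910 bp inside the gene.

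Solute carriers gave 10 narrow-only genes of 369 (2.71%), 7 of them found in pool D and all 10 found in pool C. In this family 252 had a wider domain. The strongest were Slc6a21 (556 bp, signal 11.2, pool lengths 512 and 725 bp), Slc10a4, a vesicle protein of cholinergic and monoaminergic neurons (449 bp, signal 5.78, pool lengths 332 and 679 bp), and Slc45a2, a transporter of pigment cells (325 bp, signal 4.95, pool lengths 296 and 611 bp). The family also held Slc18a3, the vesicular acetylcholine transporter (463 bp, signal 4.15, absent from pool D and 677 bp in pool C), and Slc6a2, the noradrenaline transporter (513 bp, signal 4.54, pool lengths 480 and 577 bp). These last and the nicotinic receptor genes that follow were chosen after their values were seen. The neighbouring genes Chrna3 (585 bp, signal 6.04, pool lengths 455 and 899 bp) and Chrnb4 (505 bp, signal 4.46, pool lengths 292 and 565 bp) encode subunits of the same ganglionic receptor, and both were in each pool.

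Developmental transcription factors gave 5 narrow-only genes of 85, with 43 wider and 37 without a domain. Isl2 (469 bp, signal 5.18) and Isl1 (570 bp, signal 4.49), LIM homeodomain factors of motor neurons and other lineages, were absent from pool D and measured 511 and 668 bp in pool C. Six2, a kidney progenitor factor, had 245 bp (signal 3.72), and lengths in the pools of 243 and 1847 bp. Gata4, a factor of heart and gut, had 433 bp (signal 3.64), and lengths in the pools of 331 and 450 bp, and Ptf1a, a pancreas and cerebellum factor, 274 bp (signal 3.04), absent from pool D and 1052 bp in pool C. These 5 were CpG-rich, with a median ratio of 0.814 around the summit. Of 39 Hox genes only Hoxa4 was narrow only (463 bp, signal 5.87, pool lengths 426 and 549 bp), and 34 had no domain.

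Lists for other tissues and immune cells had between 0 and 3 narrow-only genes each. The liver list had Apob, apolipoprotein B, alone of 24 (381 bp, signal 6.98, pool lengths 299 and 399 bp), and the striated muscle list Pygm, muscle glycogen phosphorylase, alone of 24 (598 bp, signal 4.15, pool lengths 321 and 942 bp). Ependyma with choroid plexus (18 genes), lymphocytes and blood (27) and germ cells (26) had no narrow-only gene. A wider domain was present at 8, 4 and 3 of their genes, in the same order. Of 69 interleukins and chemokines 3 were narrow only. They were Cxcl10, an interferon-induced chemokine (574 bp, signal 7.46, pool lengths 420 and 851 bp), Il12b (324 bp, signal 3.78, absent from pool D and 392 bp in pool C) and Il6 (491 bp, signal 3.72, pool lengths 429 and 520 bp). Of 12 toll-like receptors Tlr5, the flagellin receptor, was one (556 bp, signal 5.28, pool lengths 373 and 744 bp).

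Large gene families differed in their shares. Of 1134 olfactory receptors only Olfr750 was narrow only (458 bp, signal 2.99, pool lengths 410 and 554 bp), and 1132 had no domain. Zinc finger genes named Zfp had 2 of 394, Zfp955a and Zfp955b, while 348 had a wider domain. Collagens had 4 of 45, led by Col9a3 (469 bp, signal 4.12, absent from pool D and 482 bp in pool C), Col8a2 (565 bp, signal 3.47, pool lengths 513 and 648 bp) and Col4a6 (389 bp, signal 3.21, absent from pool D and 2328 bp in pool C). A domain of 600 bp or more that was not a promoter domain of Col4a6 lay 1023 bp from its narrow one. Potassium channels had 3 of 93. They were Kcna7 (490 bp, signal 8.35, pool lengths 509 and 476 bp), Kcnj5 (315 bp, signal 3.72, pool lengths 277 and 706 bp) and Kcna5 (429 bp, signal 2.87, absent from pool D and 775 bp in pool C). Kcna7 was among the few members longer in pool D than in pool C. Genes named Tmem had 7 of 242, led by Tmem232 (527 bp, signal 9.89, pool lengths 485 and 592 bp). Orphan receptors named Gpr had 2 of 73, Gpr143 (427 bp, signal 3.89, absent from pool D and 463 bp in pool C) and Gpr17, cytochrome P450 genes 2 of 100, Cyp2j12 and Cyp2j13, and claudins 1 of 33, Cldn1. No gene with only a narrow domain was among 329 vomeronasal receptors, 110 keratins, 61 serpins, 30 C-type lectins and 14 guanylate-binding and immunity GTPases. Gene models named Gm had 18 of 1430 and those named Rik 15 of 581.

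The clustered protocadherins were added as a group after the values were seen. They are cell adhesion genes in 3 neighbouring arrays, in which each variable exon has a promoter of its own and single neurons are known to use only some of them. Of 57 genes 10 were narrow only, 17 had a wider domain and 30 had none. Pcdhga7 (475 bp, signal 4.75, pool lengths 426 and 517 bp) and Pcdhgb2 (423 bp, signal 4.41, pool lengths 333 and 705 bp) were among the strongest. Another, of 306 bp with signal 4.49, was shared by Pcdha4 and the overlapping model Gm42416. The other 7 ran from 2.83 to 3.81 in signal, and of all 10 domains 5 were in pool D and 9 in pool C.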

How the data were processed

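H3K4me3 ChIP-seq peaks were measured in 4 libraries from 2 pools of hippocampal tissue. The authors deposited 4 peak lists on mm10, per the labels: pseudoreplicated peaks of pool D, of pool C and of both pools together, and replicated peaks. A control alignment was used, per the labels. The sources used here do not give the peak caller or its version. Each deposited peak has a display score, a signal value, −log10 p and q values from the authors' caller and a summit offset. The score and the p-value were not used, and signal was ranked only within 1 list. Depth is unknown from these files, so no counting interval on depth could be given.

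Peaks within 1 kb were joined, and domains under 600 bp with any base within 1 kb of 1 of 54361 start sites of 21853 protein-coding genes (GENCODE M21, 21 chromosomes) were kept. Presence in a pool meant at least 1 bp shared with a peak of its list, and length in a pool was that of the joined pool domain. A gene was taken from the start site nearest the summit. Sequence was read from GRCm38 of RefSeq with pysam 0.24.0, and copies were sought with minimap2 2.31-r1302 (k-mer 15, window 5, up to 50 secondary hits). Tables were made with Python 3.11.15, pandas 2.3.3 and numpy 2.4.6. The joining of peaks, the assignment of start sites and the search for overlaps were tested on simulated intervals, and the other steps were not.

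The members and the gene lists were chosen with earlier results of these data known. Named genes were the 10 strongest, the 3 shortest, 3 on either side of the length limit, the strongest 5 in neither pool and up to 5 in pool D alone, the 5 longest in pool C, the 3 extremes of CpG content at each end, and the 3 strongest narrow-only members of each list. Genes chosen otherwise are said to be so, and 1 gene that the rule names is not reported here. The alternatives were other joining distances, length limits, promoter windows, start site sets, strength limits, lists and overlaps.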

Additional observations from a re-analysis of the deposited data

How the results depend on the processing

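The main values were 501 domains, 50.9% found in pool D, 92.4% in pool C, 52.3% covering a start site, and 74.0% of the genes without a wider domain. With no gap closed there were 1191 domains, with shares of 61.4, 95.0, 32.7 and 36.3% in the same order. Under 400 bp there were 204, with 32.4, 83.3, 36.8 and 70.0%, and under 800 bp 936, with 67.5, 95.9, 64.6 and 78.1%. A promoter window of 500 bp raised the share covering a start site to 58.2%, and 1 of 2 kb lowered it to 44.0% and the share of genes without a wider domain to 68.0%. With transcripts of the basic set only, the last share was 82.3%. With the 5′ end of each gene only, it was 99.5%, since a gene then has 1 start site, and 47.0% covered that site. A −log10 q of at least 2 raised presence in pool D to 57.0%, in pool C to 95.8%. In the list called on both pools together presence was 34.1% in pool D and 94.8% in pool C. Using 1 pool's list alone gave 595 to 626 domains, a start site covered in 49.0 to 58.0% and 72.5 to 78.0% of genes without a wider domain. Of the domains narrow in pool C alone 21.4% were found in pool D, and of those narrow in pool D alone 99.0% were found in pool C. Closing gaps up to 2 kb and requiring the summit within 1 kb (chosen after seeing the data) each kept the 4 shares within their counting intervals (95% Wilson), as did covering 50% of the domain for the shares found in each pool, the values it was run for. These intervals count each domain or gene as an independent draw. They are only a yardstick for shifts and measure no spread between pools. The cause of the remaining shifts was not tested. No paired analysis was possible because both technical replicates of a pool share 1 peak list. Unknown depth limits what absence from pool D can show.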

Other observations

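The following genes belong to no list of the report, all but Grb10 had only a narrow domain, and they were chosen after their values were seen, so their number says nothing about the groups they belong to. Genes of the axoneme, the microtubule core of motile cilia and sperm tails, were among them although no gene of the ependymal list was. Spag16, of the central apparatus, had 577 bp with signal 9.81, and lengths in the pools of 510 and 630 bp. Cfap65, a protein of sperm flagella, had 488 bp with signal 8.08, and lengths in the pools of 351 and 579 bp. Dnah10, an axonemal dynein heavy chain (403 bp, signal 5.35), and Rsph14, a radial spoke protein (315 bp, signal 4.15), were shorter and were in both pools too. Spag6 (363 bp, signal 3.46) and Dnaaf3, a dynein assembly factor (302 bp, signal 3.04), were in pool C only.

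Innate immune genes formed another such set. Fcgr3, a receptor for immunoglobulin G, had 566 bp with signal 6.72, and lengths in the pools of 357 and 2475 bp, in sequence with 2 near-identical copies. Its nearest coding start site was that of a transcript outside the basic set. The domain also covered the start of the microRNA gene Mir6546, 41 bp from the summit, so the mark cannot be assigned to Fcgr3 alone. Nod2, a sensor of bacterial peptidoglycan, had 579 bp with signal 5.14, and lengths in the pools of 510 and 705 bp. The inflammatory caspase genes Casp12 (528 bp, signal 4.32), Casp4 (397 bp, signal 3.29) and Casp1 (335 bp, signal 3.23) stand next to each other on chromosome 9 and each had its own narrow domain, of which only that of Casp1 was in pool D. Fcgr2b (266 bp, signal 3.21) was in pool C only. Among imprinted genes, Grb10, a growth factor adaptor, had 311 bp with signal 5.11 at a start site 9978 bp from its wider domain, and the narrow one was 278 bp long in pool D, 1974 bp in pool C.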
